A study of Mus musculus with 16 samples.

Results

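The 10 genes described here make fatty acids from acetyl-CoA or control that synthesis, and they were taken by name from the 41740 genes counted in each library. They are the enzyme genes Acly, Acaca, Acacb, Fasn, Elovl6, Scd1, Scd2 and Me1 and the transcription factor genes Srebf1 and Mlxipl. All 10 passed the filter on low counts. The libraries are total RNA of the ileal whole wall of male C57BL/6J mice at 20 weeks of age. All of them were STAM mice, a diabetic model made with streptozotocin at 2 days of age and High Fat Diet 32 fed from 4 weeks of age, so no group was free of diabetes or of the diet. Control-STAM-nonINS (n = 4) carried the floxed insulin receptor gene without Villin-Cre and received no insulin, and the study's untreated mice were given normal saline. Control-STAM-INS (n = 6) had the same genotype and received the long-acting insulin degludec subcutaneously 2 times a day from 6 weeks of age, at up to 12 U/kg. ieIRKO-STAM-INS (n = 6) carried Villin-Cre with the floxed receptor gene and received insulin in the same way. Villin drives Cre in the intestinal epithelium, while the whole wall also holds muscle, immune, vascular and other cells that keep the receptor. In bulk RNA of this kind, fewer cells of a type and less RNA per cell cannot be told apart.

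De novo lipogenesis turns surplus carbohydrate into fatty acids. Acly splits citrate into cytosolic acetyl-CoA, the acetyl-CoA carboxylases Acaca and Acacb make malonyl-CoA from it, and Fasn joins these units into palmitate with NADPH that Me1 helps to supply. Elovl6 then lengthens palmitate, and the desaturases Scd1 and Scd2 place a double bond in the products. Acaca works in the cytosol for synthesis, whereas Acacb sits at the outer mitochondrial membrane, where its malonyl-CoA holds back fatty acid import through carnitine palmitoyltransferase. In the liver, insulin acts on these genes largely through SREBP-1c, a product of Srebf1, and glucose through ChREBP, the product of Mlxipl. In the small intestine ChREBP is also known for genes of fructose uptake and handling.

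Acacb and Mlxipl were the members with an adjusted p under 0.05 in the main edgeR fit of all 16 libraries, and both lie on chromosome 5. Acacb spans chr5:114146535-114250761 and Mlxipl chr5:135089890-135138382 on GRCm38, both on the plus strand. Their promoter windows are printed with that of Fasn, the synthase of the pathway, to show which control motifs each one holds. Each window runs from 250 bases before to 50 after a RefSeq transcript start (GRCm38.p6, 5′ to 3′ on the gene's strand). Capitals mark matches on either strand to 4 motifs, the sterol response element core TCACNCCAC, the E-box CACGTG, the CCAAT box CCAAT and the GC box GGGCGG. The Acacb window is chr5:114165268-114165567, the Mlxipl windows are chr5:135106641-135106940 and chr5:135089640-135089939, and the Fasn window is chr11:120824498-120824797 on the minus strand.
Acacb: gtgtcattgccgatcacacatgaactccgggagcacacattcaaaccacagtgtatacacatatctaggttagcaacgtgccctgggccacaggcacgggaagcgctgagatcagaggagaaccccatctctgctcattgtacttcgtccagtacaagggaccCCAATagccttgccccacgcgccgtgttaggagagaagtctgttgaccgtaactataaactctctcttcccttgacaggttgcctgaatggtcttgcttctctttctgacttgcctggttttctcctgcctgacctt
Mlxipl, window 1: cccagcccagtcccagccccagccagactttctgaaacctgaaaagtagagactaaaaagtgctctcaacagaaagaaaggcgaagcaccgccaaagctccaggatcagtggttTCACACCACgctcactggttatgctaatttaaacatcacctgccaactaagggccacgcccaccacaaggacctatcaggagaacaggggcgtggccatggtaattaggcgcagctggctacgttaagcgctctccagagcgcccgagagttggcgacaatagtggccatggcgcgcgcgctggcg
Mlxipl, window 2: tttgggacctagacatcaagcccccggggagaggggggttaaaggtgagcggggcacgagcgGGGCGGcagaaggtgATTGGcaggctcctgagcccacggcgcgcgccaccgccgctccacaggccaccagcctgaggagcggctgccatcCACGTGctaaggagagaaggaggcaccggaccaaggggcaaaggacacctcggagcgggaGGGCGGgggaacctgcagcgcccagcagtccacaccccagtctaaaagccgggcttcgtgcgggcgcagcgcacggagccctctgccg
Fasn: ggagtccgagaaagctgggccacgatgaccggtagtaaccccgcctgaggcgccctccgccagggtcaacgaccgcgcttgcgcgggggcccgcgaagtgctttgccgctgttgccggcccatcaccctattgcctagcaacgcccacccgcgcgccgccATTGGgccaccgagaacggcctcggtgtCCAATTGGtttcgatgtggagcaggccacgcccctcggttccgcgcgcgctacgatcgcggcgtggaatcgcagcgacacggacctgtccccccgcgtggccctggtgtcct

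Mlxipl was the only member with a sterol response element core or an E-box in these windows. The core lies 136 bases before the start in window 1 and the E-box 98 bases before the start in window 2. Of all 32851 windows of that length, 1.24% held the core and 7.15% the E-box. Fasn had 3 CCAAT matches, a pair of which overlap, at 90, 62 and 59 bases before the start, and Acacb had 1, at 87 bases before it. CCAAT was found in 7 of the 12 windows of members, against 37.4% of all windows, and the GC box in 5 of the 12, against 35.7%. Windows were at hand for 8 members, with more than 1 window for Me1, Srebf1 and Mlxipl, and those of Scd1 and Scd2 were not analysed here. A match is a description of letters and not a measured binding site.

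Between 13288018 and 22215382 reads were counted per library. Insr, the gene targeted in the knockout, had 49.9 to 76.1 CPM (read counts scaled to a common library size after TMM) in Control-STAM-INS and 57.5 to 90.5 in the libraries labelled ieIRKO-STAM-INS. It was not lower in the latter (log2 fold change 0.10, SE 0.13, adjusted p = 0.805, edgeR). In Control-STAM-nonINS it had 88.3 to 115.8 CPM, higher on average than in Control-STAM-INS (log2 fold change with insulin -0.75, SE 0.14, adjusted p = 0.00275) and ieIRKO-STAM-INS (-0.65, SE 0.14, adjusted p = 0.00582). Counts summed over the gene do not show the floxed part on its own. Of 5 Paneth cell markers 3 were called lower in ieIRKO-STAM-INS when set against the insulin-treated controls. Group means were 542.3 against 2686 CPM for Lyz1, 333.6 against 854.0 for Itln1 and 51.7 against 161.7 for Ang4. The summed level of 12 enterocyte genes was 30390 to 48730 CPM in the untreated libraries, 30170 to 46770 in the treated controls and 14720 to 47880 in ieIRKO-STAM-INS, whose lowest library, replicate 5, stands apart. Of the defining adipocyte genes, Adipoq was above 1 CPM in 9 of the 16 libraries, 2 of 4, 3 of 6 and 4 of 6 in the order of the groups above, and at or under 1 CPM in 7. The summed level of Adipoq, Lep, Retn and Plin1 ran from 0.392 to 54.3 CPM, from 0 to 59.9 and from 0 to 47.9 in the same order. Cidec, the fifth gene of that list, did not follow the other 4 and had 21.2 to 142.3, 31.1 to 101.6 and 7.87 to 55.7 CPM, with 101.5 CPM in an untreated library where Adipoq was at 0.0784.

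Compared per kilobase of exon, Scd2 was the most abundant member and Acacb the least. Mean levels over the 16 libraries were 67.5 CPM per kb for Scd2, 20.1 for Mlxipl, 18.5 for Acly, 17.9 for Scd1, 11.5 for Srebf1, 10.4 for Elovl6, 7.77 for Fasn, 3.63 for Me1, 2.57 for Acaca and 1.32 for Acacb. Scd2 lay above Mlxipl in 15 of 16 libraries, and Elovl6 above Fasn in 15, Fasn above Me1 in 16, Me1 above Acaca in 13 and Acaca above Acacb in 15. Mlxipl owed its place to the untreated mice, with 32.2 ± 7.15 CPM per kb (SD, n = 4) there, against 14.8 ± 2.48 (SD, n = 6) for the treated controls and 17.4 ± 3.99 (SD, n = 6) for ieIRKO-STAM-INS. In both treated groups the means of Acly (18.6 and 19.1) and Scd1 (18.1 and 22.1) were above that of Mlxipl. The neighbours from Mlxipl to Elovl6 were not separated in this way. Mlxipl lay above Acly in 6 libraries, Acly above Scd1 in 11, Scd1 above Srebf1 in 6 and Srebf1 above Elovl6 in 11. Part of the exonic sequence of Acaca (30.4% of its stretches of 50 bases) and Me1 (22.9%) occurs in other genes as well, chiefly in the gene models Gm5182 and Gm7049. For Scd1 and Scd2 the shares were 4.56% and 3.97%, mostly among the Scd genes themselves, and for Elovl6 3.98%, mostly with Gm11295. The levels of these 5 genes are less certain for that reason.

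**Figure D1:**
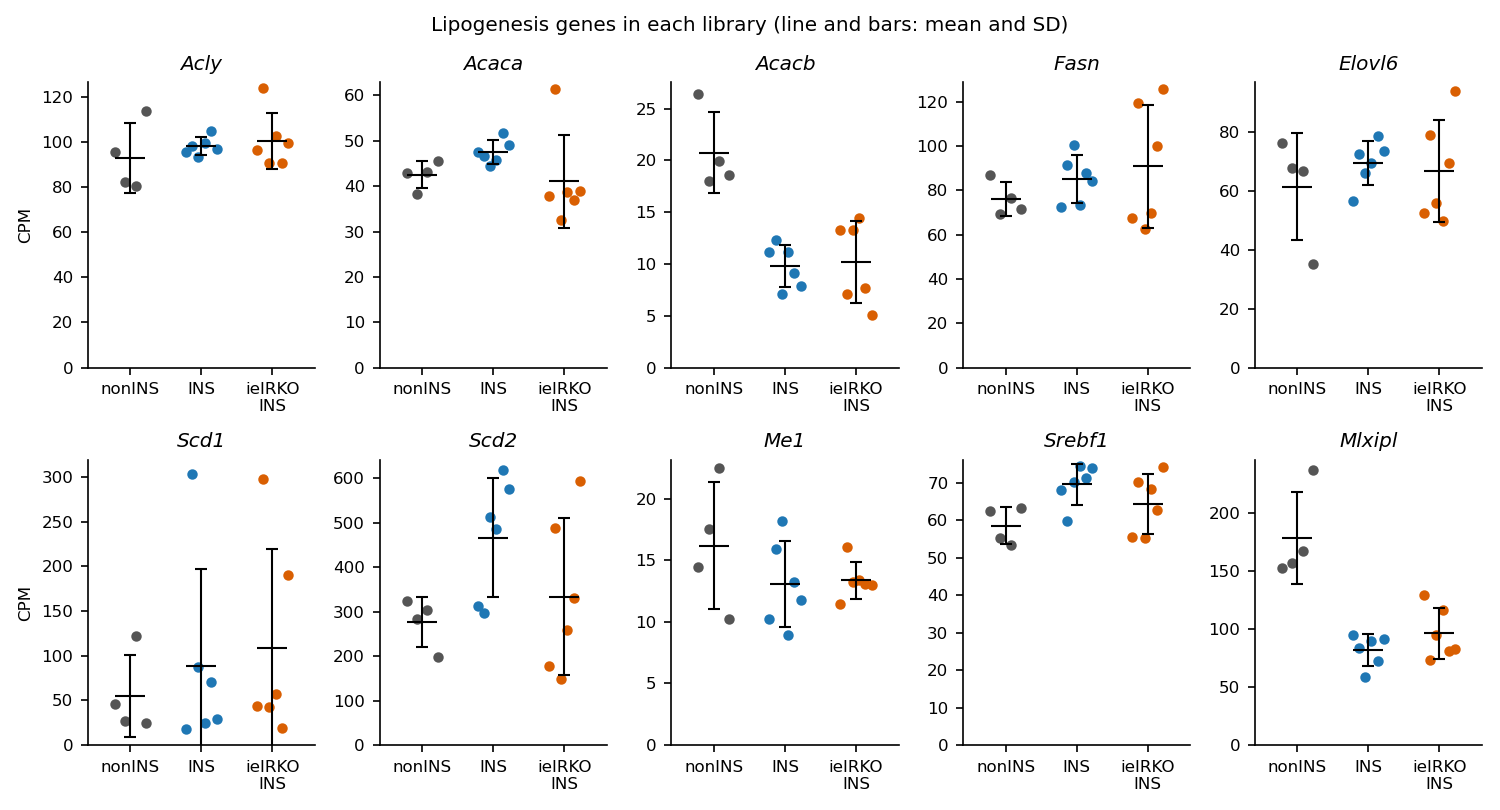
CPM of each member (vertical axes, from 0) in every library of Control-STAM-nonINS (grey), Control-STAM-INS (blue) and ieIRKO-STAM-INS (orange), with the group mean and SD in black. The 4 untreated libraries lie above all 12 insulin-treated ones for Acacb and Mlxipl, and Scd1 has single libraries near 300 CPM (the lower SD bar is cut at 0 for 2 of its groups).

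The first comparison, Control-STAM-INS against Control-STAM-nonINS, asks how insulin treatment moved these genes in diabetic mice of the control genotype. Acacb and Mlxipl fell to less than 50% of their untreated level, and no member rose past the threshold. The synthase, the citrate and elongation enzymes and the cytosolic carboxylase had fold changes near 1. Of the 10 members 2 were called by edgeR at an adjusted p under 0.05, both of them lower, where 10.5% of the 15267 genes tested were called and 6.76% were called lower. The members' median log2 fold change was 0.16, with 7 above 0, and that of all genes was -0.0043.

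Acly, the citrate-cleaving enzyme, had 95.5, 82.0, 80.6 and 113.9 CPM in the untreated libraries, and 95.6, 98.3, 93.5, 99.6, 104.7 and 97.1 in Control-STAM-INS. The treated libraries lay within the range of the untreated ones (log2 fold change 0.08, 95% confidence interval -0.13 to 0.28, adjusted p = 0.700). Acaca, the carboxylase of the cytosol, ran from 38.3 to 45.5 CPM (median 43.0) without insulin and from 44.4 to 51.8 with it (median 47.2). Its groups overlapped (log2 fold change 0.16, adjusted p = 0.467), and the 95% confidence interval of the fold change was 0.939 to 1.33. The exact two-sided permutation test of mean log2 CPM gave it an unadjusted p of 0.0143.

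Acacb, the mitochondrial carboxylase, had 26.5, 18.0, 19.9 and 18.6 CPM in the untreated libraries. With insulin it had 11.2, 12.3, 7.13, 11.2, 9.16 and 7.87 CPM. All 6 treated libraries lay below all 4 untreated ones, as did 10.6% of all tested genes in one direction or the other. Its level was 0.472 of the untreated one (log2 fold change -1.08, SE 0.25, adjusted p = 0.0102, edgeR), and the exact two-sided permutation test gave p = 0.00476, the smallest these group sizes allow. Acacb rests on 87 to 425 reads per library, the fewest of the members at its lowest.

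Fasn, the palmitate-making synthase, had 86.8, 69.3, 76.8 and 71.8 CPM without insulin. With insulin it had 72.6, 91.6, 100.4, 73.6, 88.0 and 84.4 CPM. The group means of 76.2 ± 7.74 (SD, n = 4) and 85.1 ± 10.7 (SD, n = 6) differed by less than the spread between treated mice. The log2 fold change was 0.16 (95% confidence interval -0.19 to 0.51, adjusted p = 0.631). Elovl6, the elongase of palmitate, had 61.6 ± 18.1 CPM (SD, n = 4) without and 69.6 ± 7.64 (SD, n = 6) with insulin, where one untreated library at 35.2 CPM stood below all others. Its log2 fold change of 0.18 was not called (adjusted p = 0.631).

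The desaturases varied most between mice. Scd1 had 45.8, 26.5, 122.2 and 24.1 CPM without insulin and 18.2, 302.7, 87.0, 24.4, 70.0 and 29.0 with it, a range of 16.7-fold over the whole series. Its log2 fold change of 0.69 had a 95% confidence interval of -1.14 to 2.52 (adjusted p = 0.702), and without Control-STAM-INS replicate 2, the library at 302.7 CPM, it was -0.26. Scd2, the main desaturase by level, had 324.2, 282.1, 304.0 and 196.8 CPM without insulin. The treated libraries had 312.1, 296.9, 512.4, 484.7, 617.0 and 574.3 CPM, so that 4 of the 6 lay above every untreated library and the other 2 lay among them. The log2 fold change of Scd2 was 0.75 (SE 0.35) and was not called (unadjusted p = 0.0508, adjusted p = 0.198, edgeR), while a fit of these 2 groups alone gave an adjusted p of 0.0475. Its exact permutation test gave an unadjusted p of 0.0286.

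Me1, the cytosolic malic enzyme that yields NADPH, had 16.2 ± 5.16 CPM (SD, n = 4) without and 13.1 ± 3.50 (SD, n = 6) with insulin, and its ranges overlapped (adjusted p = 0.360). Srebf1, the gene of SREBP-1, moved little but evenly. It had 62.4, 55.4, 53.3 and 63.2 CPM without and 68.0, 59.7, 70.1, 74.5, 71.3 and 73.9 with insulin, and 5 of the 6 treated libraries lay above all untreated ones. The log2 fold change was 0.25 (SE 0.10, unadjusted p = 0.0189, adjusted p = 0.109, edgeR), which is not a call. By the exact permutation test its unadjusted p was 0.0238. That test gave a p of 0.2 or more for Acly, Fasn, Elovl6, Scd1 and Me1. Counts per gene do not tell the SREBP-1a and SREBP-1c transcripts apart, and 109 bases at the end of Srebf1 overlap Rai1 on the other strand.

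Mlxipl, the gene of ChREBP, had 152.2, 156.6, 167.1 and 236.8 CPM without insulin. With it, the libraries had 95.04, 83.3, 59.0, 89.9, 72.6 and 91.5 CPM. The highest treated library was below the lowest untreated one. The level with insulin was 0.460 of that without (log2 fold change -1.12, SE 0.17, adjusted p = 0.000624, edgeR), and the exact permutation test again gave its smallest p of 0.00476. This was the lowest adjusted p of any member in any comparison.

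Other measured features moved with the 2 falls. The summed mitochondrially encoded transcripts, the measure of RNA quality used here, ran from 53920 to 60800 CPM without insulin and from 44120 to 52090 with it, without overlap. Of 7 enteroendocrine and tuft cell markers 4 were called lower, with group means of 91.9 and 25.7 CPM for Chgb, 43.2 and 22.8 for Chga, 42.8 and 22.2 for Gcg and 3.67 and 1.67 for Neurod1, while the tuft cell gene Trpm5 was called higher (7.20 and 10.9 CPM). Of 7 T cell and macrophage markers 3 were called higher, all of them T cell genes, at 1.956 and 5.513 CPM for Cd3e, 2.05 and 6.89 for Cd3g and 2.542 and 6.504 for Cd8a. Of 4 endothelial markers 2 were called lower, at 21.9 and 13.6 CPM for Cdh5 and 40.9 and 24.5 for Vwf. All 11 adipocyte genes together summed to 588.7 to 1023 CPM without insulin and 177.7 to 567.8 with it, without overlap. Most of that difference was Pck1, the only one of them called, at 311.8 to 423.9 and 10.99 to 79.9 CPM. Cela1 alone of the 10 pancreatic acinar genes passed the filter, and it was called lower, at 7.22 and 3.87 CPM. Of 5 Paneth cell markers 1 was called, and their summed level was 2226 to 3836 CPM without insulin and 2836 to 4696 with it. The part of these in the falls of Acacb and Mlxipl was not tested.

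Adipoq was above 1 CPM in 2 of the 4 untreated and 3 of the 6 treated libraries, and when the 9 libraries above that level were left out, 2 untreated and 3 treated libraries remained. In them Mlxipl had a log2 fold change of -1.08 (adjusted p = 0.0998) and Acacb one of -0.85 (adjusted p = 0.237), and neither was called, in a fit that called 10 genes in all. With the mean log2 level of Adipoq, Lep, Retn and Plin1 as a covariate in all 16 libraries, both were called, at -1.13 for Mlxipl (adjusted p = 0.000659) and -1.09 for Acacb (adjusted p = 0.0127). The summed level of these 4 genes had a median of 7.76 CPM without insulin and 7.52 with it, and Pck1 was not in the score. That fit therefore cannot tell what part Pck1 or the other genes of the adipocyte list had.

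**Figure D2:**
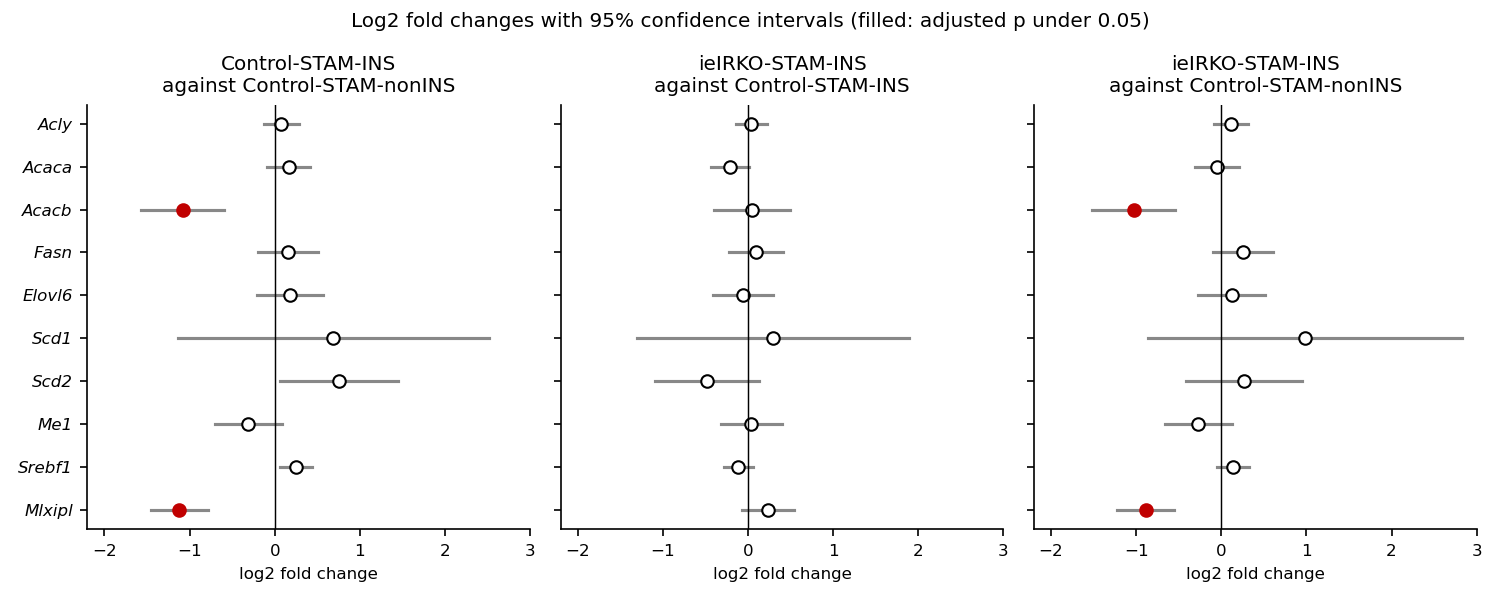
Log2 fold changes (horizontal axes) of the 10 members in the 3 comparisons, with 95% confidence intervals as bars and filled points for an adjusted p under 0.05 in edgeR. Only Acacb and Mlxipl are filled, in the 2 comparisons against Control-STAM-nonINS, and the interval of Scd1 is the widest in each.

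The second comparison, ieIRKO-STAM-INS against Control-STAM-INS, sets mice with and without Villin-Cre side by side under the same insulin. No member was called, where edgeR called 34 of 15267 genes, which is 0.223%. No member had an unadjusted p under 0.05 either, against 1721 of all genes. No member's groups were free of overlap, as was the case for 0.845% of genes. The median log2 fold change of the members was 0.04 and that of all genes 0.02.

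The intervals say how large a difference these libraries leave possible. For Acly the 95% interval of the log2 fold change was -0.15 to 0.22, for Srebf1 -0.28 to 0.06, and for Fasn -0.22 to 0.41. For Acacb it was -0.39 to 0.50, for Me1 -0.32 to 0.39, for Elovl6 -0.41 to 0.29 and for Mlxipl -0.07 to 0.54, and that of Scd1 ran from -1.30 to 1.89. Scd2 had the log2 fold change farthest from 0 among the members, -0.49 (95% interval -1.10 to 0.12, adjusted p = 0.587), and that of Acaca had an interval of -0.44 to 0.01. Misses of the threshold in genes with such intervals do not show equal levels.

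Several members split the 6 ieIRKO-STAM-INS libraries. Fasn had 67.5, 119.3, 62.7, 69.8, 100 and 125.6 CPM in replicates 1 to 6, so that replicates 2, 5 and 6 lay well above 1, 3 and 4. Scd2 had 177.8, 487.4, 148.2, 259.0, 331.4 and 593.1 CPM, and Elovl6 had 52.5, 79.3, 56.1, 49.9, 69.7 and 94.1. The same 3 libraries were the higher ones for both. Acacb had 13.3, 7.15, 13.3, 14.5, 7.71 and 5.11 CPM and Mlxipl 129.3, 73.3, 94.97, 116.6, 81.5 and 82.7, and there replicates 2, 5 and 6 were the lower ones. The SD of Fasn was 27.9 CPM (n = 6) here against 10.7 in Control-STAM-INS (n = 6). This difference in spread was not tested.

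Acaca was the member nearest to a call. It had 37.9, 61.3, 32.6, 38.8, 36.9 and 38.8 CPM in ieIRKO-STAM-INS against 44.4 to 51.8 in Control-STAM-INS. All libraries but replicate 2, at 61.3 CPM, lay below every Control-STAM-INS library. Its log2 fold change was -0.21 (SE 0.12, adjusted p = 0.513), and without replicate 2 it was -0.36 (adjusted p = 0.0418, edgeR), the one setting in which a member was called in this comparison. Acly was also highest in replicate 2, at 124.0 CPM against 90.5 to 102.4 in the other 5. Replicate 2 held 20.9 CPM of Adipoq, the highest of its group. In the fit with the adipocyte score as a covariate, neither Acaca (slope 0.03, SE 0.02) nor Acly (slope 0.0094, SE 0.01) had a slope past the threshold (adjusted p = 0.995 each, edgeR).

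The third comparison sets ieIRKO-STAM-INS against the untreated controls, so that genotype and insulin both differ. It shares the untreated libraries with the first comparison and the ieIRKO libraries with the second, so its values are not independent of either. The members called were again Acacb and Mlxipl, 2 of 10 members and both lower, where 13.3% of genes were called and 7.59% were called lower. Acacb had a level of 0.490 of the untreated one (log2 fold change -1.03, SE 0.25, adjusted p = 0.0113) and Mlxipl one of 0.541 (log2 fold change -0.89, SE 0.17, adjusted p = 0.00295, edgeR). The highest ieIRKO-STAM-INS library lay below the lowest untreated one for both, at 14.5 against 18.0 CPM for Acacb and 129.3 against 152.2 for Mlxipl, and 8.56% of all genes were free of overlap. Without Control-STAM-nonINS replicate 1, Acacb had a log2 fold change of -0.89 and an adjusted p of 0.0517. Other measured features moved here as well. The mitochondrially encoded transcripts, the measure of RNA quality used here, summed to 53920 to 60800 CPM in the untreated libraries and 39770 to 53100 in ieIRKO-STAM-INS. All 11 adipocyte genes summed to 588.7 to 1023 and 111.2 to 505.0, and neither sum overlapped. None of the 11 was called, and Pck1 alone ran from 311.8 to 423.9 and from 4.98 to 273.6 CPM. The defining adipocyte genes overlapped, with sums of 21.95 to 196.5 and 8.44 to 86.95 CPM. B and plasma cell genes summed to 717.6 to 1771 and 1655 to 3115 CPM, with 3 of 6 called higher. Called too were 3 T cell genes, all higher, 3 of 7 enteroendocrine and tuft cell genes (Chga and Chgb lower, Trpm5 higher) and, all lower, the Paneth cell genes Lyz1 and Ang4, the enterocyte gene Fabp6, Dcn of fibroblasts, Vwf of endothelium and Cela1. Their part in the falls of Acacb and Mlxipl was not tested. Without the libraries with Adipoq over 1 CPM, Mlxipl was called (log2 fold change -1.16, adjusted p = 0.0455) and Acacb was not (-0.81, adjusted p = 0.157). With the adipocyte covariate, which leaves out Pck1, both were, at -0.86 (adjusted p = 0.00343) and -1.03 (adjusted p = 0.0141). The other 8 members had log2 fold changes between -0.27 for Me1 and 0.98 for Scd1 and were not called.

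Within the groups, some pairs of members moved together or against each other from mouse to mouse. After the group means were taken off log2 CPM, Fasn and Scd2 had r = 0.81 over the 16 libraries (Spearman's rho 0.79, permutation p = 0.00502 and 0.0072, permuted within groups). Fasn and Mlxipl had r = -0.71 (rho -0.78, permutation p = 0.00502 and 0.00278), and Acacb and Scd2 r = -0.76 (rho -0.70, permutation p = 0.00997 and 0.0209). Libraries with more of the synthase thus had more of the desaturase and less of the ChREBP transcript. Without the 2 libraries farthest from the median of the first gene, the 3 values were 0.66, -0.83 and -0.71.

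All 45 pairs of members were compared, and 6 positive and 4 negative ones had a Benjamini-Hochberg adjusted permutation p of Pearson's r under 0.05. Acacb and Mlxipl, the members that fell with insulin, were not among them (r = 0.56, rho 0.60, permutation p = 0.0519 and 0.0395, adjusted 0.146 and 0.127). The lowest was for Acaca with Acly (r = 0.77, rho 0.68, permutation p = 0.00013, adjusted 0.00585, and for rho 0.0025, adjusted 0.0417), the enzymes of adjoining steps. Scd2 also went with Elovl6 (r = 0.75, adjusted permutation p = 0.0234) and Srebf1 (r = 0.73, adjusted permutation p = 0.0438), and Elovl6 with Fasn (r = 0.68, adjusted permutation p = 0.037). Mlxipl went against Elovl6 (r = -0.74, adjusted permutation p = 0.0323) and Me1 (r = -0.68, adjusted permutation p = 0.0323), and Scd1 with Me1 (r = 0.67, adjusted permutation p = 0.0323). The adjusted p of Fasn with Scd2 and with Mlxipl was 0.0323 each and that of Acacb with Scd2 was 0.0449. By Spearman's rho, 3 of the 10 kept an adjusted p under 0.05, at 0.0417 each, namely Fasn with Mlxipl, Acaca with Acly, and Scd2 with Elovl6.

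The pairs point the same way in both insulin-treated groups. Fasn and Mlxipl had r = -0.83 in the treated controls and -0.81 in ieIRKO-STAM-INS, and Acacb and Scd2 had -0.73 and -0.90 (n = 6 each). Fasn and Scd2 had 0.24 and 0.97, so that this pair rests mainly on ieIRKO-STAM-INS. Among the other 11186 genes with a mean of at least 5 CPM, 0.0715% had an r with Fasn of 0.81 or more, and 0.983% had one of -0.71 or less. Over both genes of all pairs that passed by Pearson's r, such shares ran from 0.0715% to 2.99%. The highest was that of genes as close to Elovl6 as Fasn was. All values come from the same libraries and are shares of one total, so a change in the makeup of the tissue moves many genes at once.

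**Figure D3:**
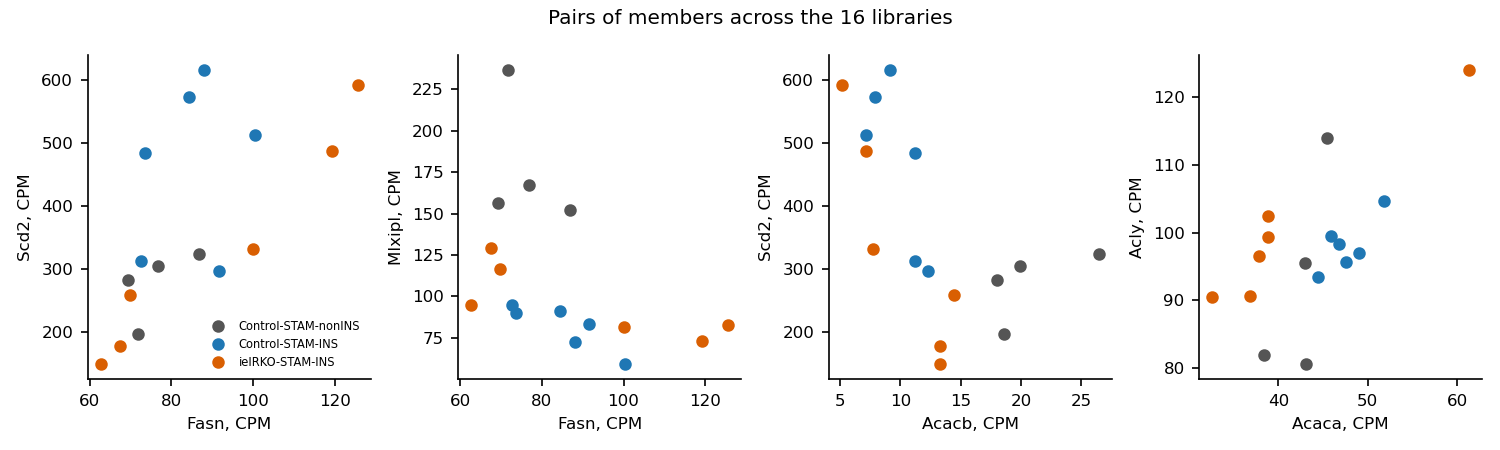
CPM of 4 pairs of members (both axes) in each of the 16 libraries, coloured by group. Scd2 rises with Fasn and falls with Acacb, Mlxipl falls with Fasn, and Acly rises with Acaca, whose highest point is ieIRKO-STAM-INS replicate 2.

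Scd1 followed the adipocyte genes Adipoq, Lep, Retn and Plin1, and no other member did so past the threshold. In the 7 libraries with Adipoq at or under 1 CPM, Scd1 ran from 18.2 to 42.1 CPM (median 24.4). In the 9 libraries above that, it ran from 43.6 to 302.7 CPM (median 87.0), so that the ranges did not overlap. Among those 9 libraries, log2 Scd1 and the mean log2 level of the adipocyte genes had r = 0.97 (exact permutation p = 5.51e-05, adjusted over 20 relations 0.0011) and rho 0.95 (exact permutation p = 0.000353, adjusted 0.00705). Without the 2 farthest libraries r was 0.94, and among the 7 low libraries it was -0.16 (exact permutation p = 0.752). In the fit with this score as a covariate, Scd1 was 1 of 25 genes with a slope past the threshold (0.36 log2 units per unit of score, SE 0.05, adjusted p = 0.013, edgeR).

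The genes with the most similar pattern to Scd1 over the 16 libraries were Hp (r = 0.88), Lpl (0.87), Ccdc80 (0.86), Adipoq (0.85) and Car3 (0.84), of 11187 compared. Adipoq and Lpl are on the list of adipocyte genes used here. Its spread within groups, an SD of 1.41 on the log2 scale, was at the 99.9th percentile of the 9441 genes with a mean of at least 10 CPM. Scd2 (0.58) and Acacb (0.44) were also above most genes, while Srebf1 (0.15) and Acly (0.16) were below the median of 0.19. Fasn, with r = 0.71 to the adipocyte genes among the 9 libraries, did not pass the adjustment (exact permutation p = 0.0362, adjusted 0.362).

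**Figure D4:**
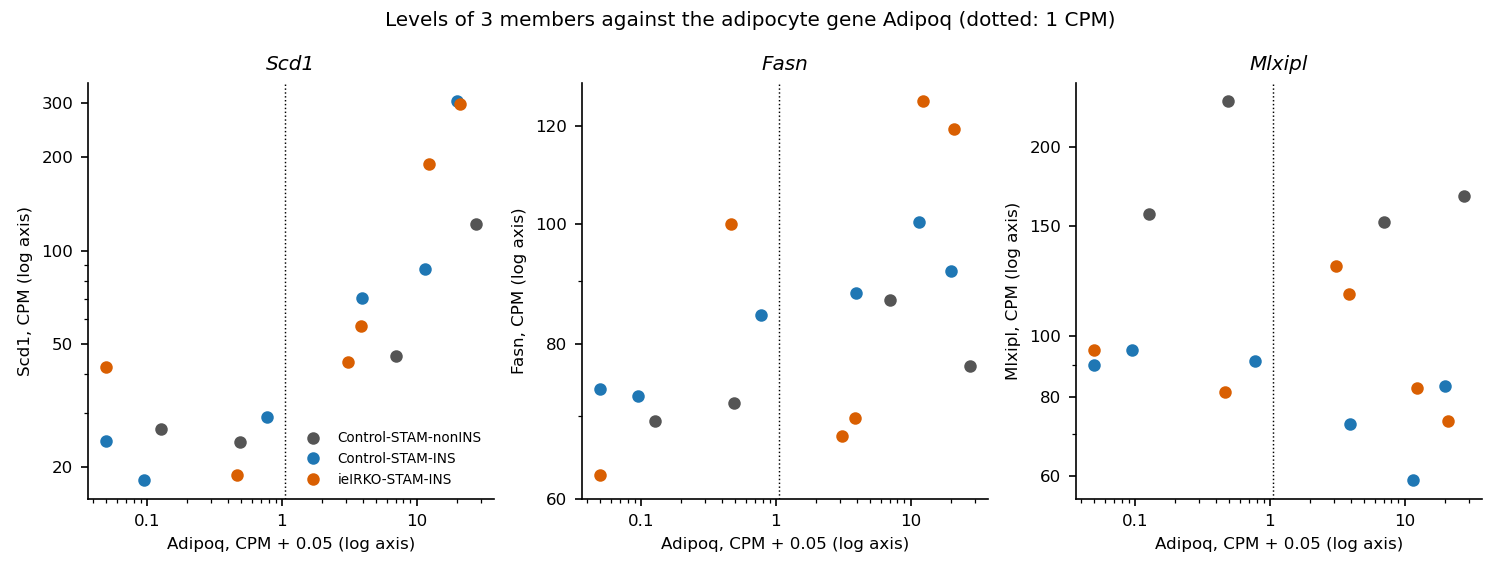
CPM of Scd1, Fasn and Mlxipl (vertical log axes) against CPM of Adipoq plus 0.05 (horizontal log axes) in each library, coloured by group. Scd1 climbs from 43.6 to 302.7 CPM to the right of the dotted line at 1 CPM of Adipoq, while the untreated libraries of Mlxipl are highest on both sides of it.

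For Fasn the most similar genes were Hcfc2 (r = 0.90), Ehd4 (0.80), Piga (0.80), Rap1b (0.79) and 2900097C17Rik (0.79). For Srebf1 they included Scd2 (0.78), Ret (0.77), Tex2 (0.76) and Mvk (0.75). Nearest genes were listed for Fasn, Scd1 and Srebf1 alone. These values are descriptions over 16 libraries and carry no test.

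Among the genes around the pathway, more were called lower than higher with insulin. Of 119 tested genes in the 9 lists other than the members, edgeR called 1 higher and 19 lower in Control-STAM-INS against Control-STAM-nonINS, where 1032 of the 1602 genes called in all were lower, or 6.76% of those tested. Against Control-STAM-nonINS, ieIRKO-STAM-INS had 1 called higher and 21 called lower (7.59% of all genes were called lower), and against Control-STAM-INS none was called in either direction (0 of 119). Without the 9 libraries with Adipoq over 1 CPM, 0, 0 and 2 of the 119 were called lower in the first comparison, the second and the third, in a setting where few genes were called at all. Genes below the filter were Elovl2, Elovl3, Scd3, Pnpla3, Gckr, Fgf21 and Cyp4a10.

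PPAR-alpha targets, most of which serve the burning of fatty acids, were the list with the most calls. With insulin in the control genotype, edgeR called 7 of 14 lower. Their median log2 fold change was -0.82, against -0.0043 for all genes. Pdk4, which shuts off pyruvate dehydrogenase, had a log2 fold change of -3.07 (SE 0.61, adjusted p = 0.0065), Fabp1, a fatty acid carrier, one of -2.58 (SE 0.57, adjusted p = 0.0117), and Angptl4, an inhibitor of lipoprotein lipase, one of -2.13 (SE 0.50, adjusted p = 0.0166). Without the libraries with Adipoq over 1 CPM the median of the 14 was -0.74, and none was called. Against the same untreated libraries, edgeR called 9 of 14 lower in ieIRKO-STAM-INS.

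On the supply side, 3 of 11 genes for citrate and acetyl-CoA were called lower and none was called higher. Besides Pdk4 these were Pck1, the enzyme of glyceroneogenesis and gluconeogenesis (log2 fold change -3.23, SE 0.89, adjusted p = 0.0351), which is also on the adipocyte list, and Pdha1, a subunit of pyruvate dehydrogenase (-0.29, SE 0.08, adjusted p = 0.0225). Of 10 NADPH genes, the mitochondrial malic enzyme Me3 (-1.04, SE 0.15, adjusted p = 0.000396) and the hexose-6-phosphate dehydrogenase H6pd (-0.70, SE 0.13, adjusted p = 0.00283) were lower. The member Me1 had a log2 fold change of -0.31 (95% confidence interval -0.70 to 0.08), which was not called. Of 14 elongation and desaturation genes, Fads3 (-0.91, SE 0.22, adjusted p = 0.0151) and Tecr, which completes each round of elongation (-0.27, SE 0.08, adjusted p = 0.0423), were lower.

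Beside the 10.5% of all genes called, the lists for the transcription factors held 1 of 18 and 2 of 10. Among the 18 genes for SREBP processing and partners, the protease gene Mbtps2 alone was called (-0.50, SE 0.11, adjusted p = 0.00612). Among the 10 tested ChREBP partners and sugar-responsive targets, Khk, which phosphorylates fructose (-0.81, SE 0.21, adjusted p = 0.0208), and Mlxip, the paralogue of ChREBP (-0.44, SE 0.10, adjusted p = 0.0113), were lower beside Mlxipl itself. Of the 14 genes for control of acetyl-CoA carboxylase, Prkag2, a subunit of AMP-activated kinase (-0.74, SE 0.12, adjusted p = 0.000926), was lower beside Acacb. Of 17 genes for acyl-CoA activation and glycerolipid assembly, the phosphatidate phosphatase Lpin1 (-0.75, SE 0.20, adjusted p = 0.022) and the acyl-CoA synthetase Acsl1 (-0.63, SE 0.18, adjusted p = 0.03) were lower. The single gene called higher was Stard4, a sterol carrier, among 15 cholesterol genes under SREBP-2 (0.46, SE 0.13, adjusted p = 0.0268).

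**Figure D5:**
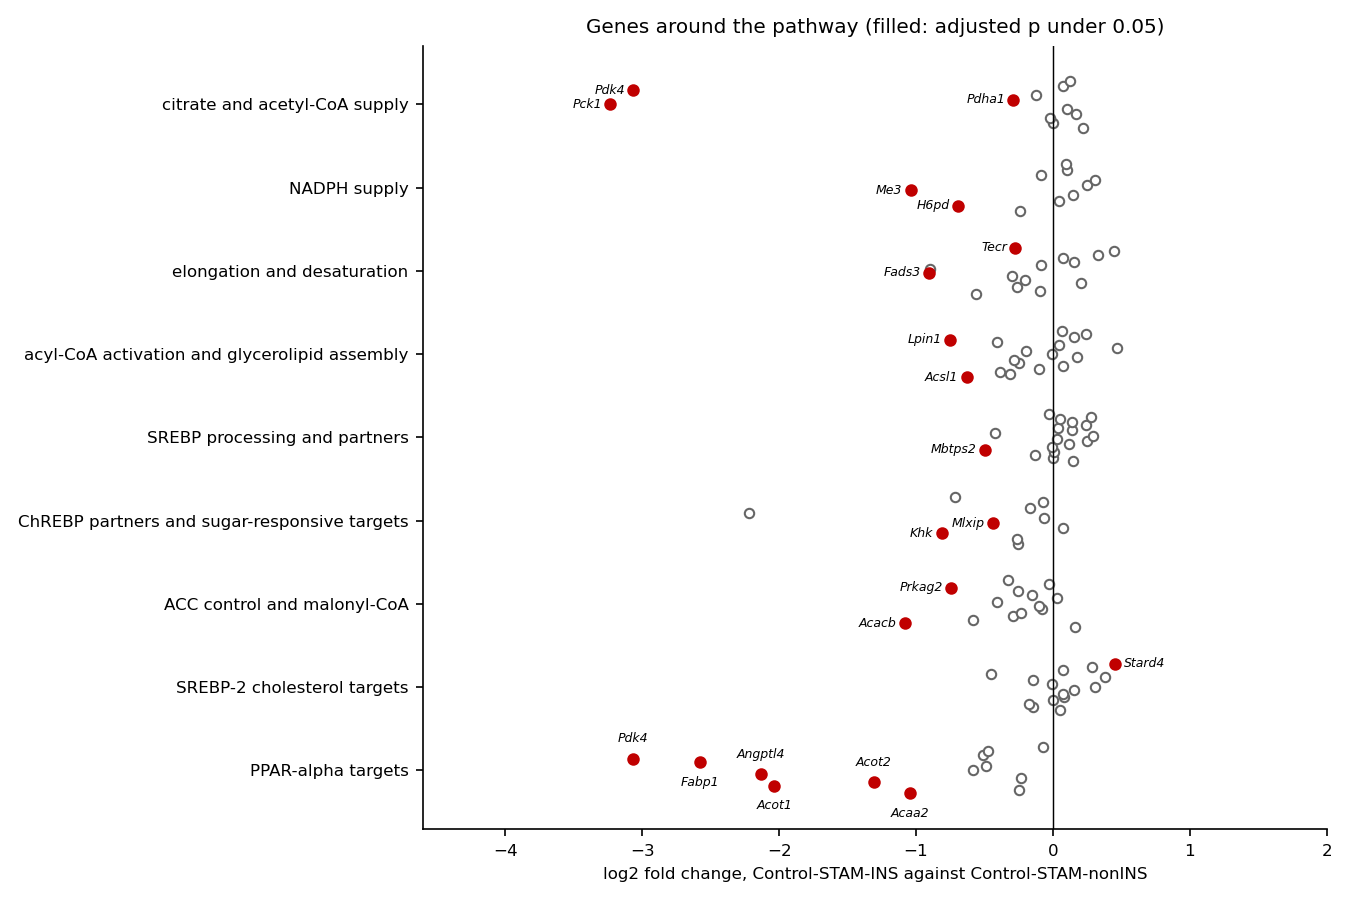
Log2 fold changes with insulin in the control genotype (horizontal axis) for tested genes of 9 lists around the pathway, with filled and named points for an adjusted p under 0.05 in edgeR. All but 1 of the filled points lie left of 0, and 6 of the 13 PPAR-alpha targets drawn are among them.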

How the data were processed

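The libraries are total RNA from the whole ileal wall of 16 STAM mice in 3 groups. According to the methods, the authors made directional libraries and mapped the reads to GRCm38 (mm10) with CLC Genomics Workbench. They deposited raw read counts per gene and library. Whether strand was used in counting is not given in the sources used here.

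Counts were analysed with edgeR 4.0.16 (limma 3.58.1, R 4.3.3), with filterByExpr (minimum count 10, minimum total 15), TMM and one robust quasi-likelihood fit of all groups. Adjusted p-values are Benjamini-Hochberg over 15267 genes. The SE is the log2 fold change divided by the square root of F, and 95% intervals were taken from the normal distribution, which makes them slightly narrower than the F test allows. CPM values rest on TMM library sizes, and log2 values add a prior count of 2. Exact permutation tests were two-sided, and those of member pairs used 100000 permutations (scipy 1.17.1). Lengths and positions come from GENCODE M21 (97.5% of gene names found), and promoters from RefSeq. The fit was tested on simulated data.

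The members and lists were chosen with earlier results of these data known. Named were all members, Insr, up to 4 genes per list by largest called change, and the 5 genes most like Fasn, Scd1 and Srebf1. Of the genes under this rule, 2 are not reported here. The settings that leave out libraries with Adipoq over 1 CPM or add an adipocyte covariate were chosen after seeing the data. The labels give a group and a replicate number, and the study's methods count replicates as mice. Each library was therefore taken as a separate mouse, and p-values measure the spread between libraries. Depth limits Acacb and Me1 most, and no library was left out of the main results.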

Additional observations from a re-analysis of the deposited data

Results flagged for a closer look

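Of 30 sets of values (10 members in 3 groups), 3 held a library far from the rest by Dixon's ratio, the gap to the nearest library over the range of its group. About 1 in 20 such sets is flagged by chance. In ieIRKO-STAM-INS replicate 2, Acaca was high at 61.3 CPM with a ratio of 0.783, and Acly was high at 124.0 CPM with a ratio of 0.644. In Control-STAM-INS replicate 2, Scd1 was high at 302.7 CPM with a ratio of 0.758. Both libraries were among those with Adipoq above 1 CPM, at 20.9 and 20.01 CPM. In the edgeR fit with the adipocyte score as a covariate, Scd1 had a slope past the threshold (0.36 log2 units per unit of score, adjusted p = 0.013), and Acaca and Acly did not (adjusted p = 0.995 each).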

How the results depend on the processing

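The falls of Acacb and Mlxipl kept their direction under every setting run. The changes of sign in single members, given below, were all in results not called in the main fit. When the 9 libraries with Adipoq over 1 CPM were left out, which leaves 2, 3 and 2 libraries, edgeR called 10, 3 and 172 genes in the 3 comparisons in the order of the report, and 0, 0 and 1 members. In that setting Scd1 was -0.072 in the first comparison, Acly -0.12 and Mlxipl -0.079 in the second, and Acly -0.11, Scd2 -0.0048 and Srebf1 -0.010 in the third (log2), each with its sign changed. DESeq2 called 133 genes in the second comparison (34 in edgeR), and a fit of 2 groups alone called 1038 in the third (2036 with all groups). With each library left out in turn, 824 to 1877, 29 to 50 and 1093 to 2274 genes were called. The lowest counts in the comparisons with Control-STAM-nonINS were without Control-STAM-nonINS replicate 1. Members called ranged from 2 to 2, 0 to 1 and 1 to 2. The log2 values of members whose sign changed in this way ran in the first comparison from -0.26 to 1.46 (Scd1) and -0.017 to 0.30 (Elovl6). In the second they ran from -0.020 to 0.18 (Fasn), -0.076 to 0.19 (Acacb), -0.033 to 0.064 (Acly), -0.32 to 1.25 (Scd1), -0.18 to 0.015 (Elovl6) and -0.049 to 0.16 (Me1). In the third they ran from -0.19 to 0.0077 (Acaca) and -0.074 to 0.24 (Elovl6).

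Same-numbered libraries had deviations with r from -0.09 to 0.18, and most did not correlate best with their own number. The libraries were therefore not treated as pairs in the main fit, though such values cannot exclude a weak pairing. With the replicate block, 1397, 30 and 1615 genes and 2, 0 and 2 members were called, and Acacb in the second comparison (-0.0088) and Scd2 in the third (-0.082) changed sign.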
